A study of Mus musculus with 7 samples.

Results

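Disease-associated microglia genes are the transcripts that microglia of plaque-bearing brains carry at higher levels than resting microglia. They were described here as a list of 33 mouse gene symbols, given by name. The list was chosen with earlier results of these data known. Rows were found for 32 of the 33 symbols among the 32285 genes of the matrices, and Clec7a was not analysed here. The data were single-nucleus RNA libraries, in which each barcode marks a droplet with usually 1 nucleus and each unique molecular identifier (UMI) marks 1 captured RNA molecule. All mice carried the 5xFAD transgenes on 1 chromosome copy (5xFAD +/-), which a Thy1 promoter drives in neurons, and were 6 months old. They had received an adeno-associated virus (AAV) into the retro-orbital vein at 4 months. The virus was ANGPT2 AAV in 4 mice, which codes for angiopoietin-2, a vessel-active protein that binds TIE2, or control AAV in 3 mice, whose payload the labels do not name. The labelled tissue was subcortex, thalamus and hippocampus, with 1 library per mouse. ANGPT2 replicates 1 (male) and 2 (female) shared batch 1 with control replicates 1 (male) and 2 (female). ANGPT2 replicates 3 (male) and 4 (female) shared batch 2 with control replicate 3 (male), so batch 2 holds no control female.

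Microglia are the resident macrophages of the brain. Near amyloid they lower a set of homeostatic genes and raise genes for lipid uptake, lysosomal digestion and signalling, and later steps of this change need the lipid-sensing receptor TREM2. TREM2 has no signalling tail of its own and acts through the adaptor protein TYROBP, also called DAP12. The members cover the receptor pair and other surface proteins, lysosomal proteases and membrane proteins, lipid enzymes, secreted factors, and a mixed group with iron storage, hypoxia and cytoskeletal genes.

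The libraries held 25466033 to 100529717 UMIs each, and 54230 nuclei were kept. Of all barcode sequences, 1941 occurred in more than 1 library. Striatal medium spiny neurons made up 3.0%, 5.1%, 30.1% and 6.8% of kept nuclei in ANGPT2 replicates 1 to 4, and 0.1%, 1.7% and 18.03% in control replicates 1 to 3, and the cause of this spread was not tested. Endogenous Angpt2 had 280, 232, 52 and 80 UMIs in ANGPT2 libraries and 327, 272 and 95 in control libraries, and a vector transcript outside the reference would not be counted. The class of microglia-like nuclei, called microglia below as the other classes are called by their markers, held 2711 nuclei, which is 5.00% of the kept nuclei and 1.36% of their UMIs. No lymphocyte cluster was named in this clustering. A finer clustering (resolution 2) named a lymphocyte cluster of 55 nuclei, and a clustering without the members named a lymphocyte cluster of 49 nuclei. At resolution 2 the microglia class held 246, 293, 221 and 598 nuclei in ANGPT2 replicates 1 to 4. In control replicates 1 to 3 it held 357, 415 and 512. The counts of the class used here are given below, and how many of the lymphocyte nuclei lie in it was not tested. The microglia class was named from 14 markers that hold no member. Those markers summed to 9032, 8571, 10951 and 9028 CPM, their UMIs as a part of each 1e6 UMIs of the class, in microglia of ANGPT2 libraries and to 9596, 8696 and 8534 CPM in microglia of control libraries. The same sum stayed at 187 to 222 CPM in oligodendrocytes of ANGPT2 libraries and at 231 to 329 CPM in those of control libraries. Inside the microglia class, astrocyte markers summed to 4046, 1348, 818 and 1037 CPM in ANGPT2 libraries and to 3772, 2131 and 1119 CPM in control libraries. Thalamic neuron markers there summed to 1482 to 1755 CPM in ANGPT2 libraries and to 1357 to 1665 CPM in control libraries. The part of RNA of other cells in the levels below was not tested. There were 249, 315, 221 and 599 microglia in ANGPT2 libraries and 374, 438 and 515 in control libraries, with 263986 to 1069914 UMIs per library. Intervals and floors below cover counting error only.

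Upstream sequence is shown for 3 members. Hif1a is shown because it holds the letters CACGTG, the E-box recognised by the MITF and TFE factors of lysosomal genes. Dkk2 is shown because it is in 2 of the 6 pairs that most exceeded their expected co-detection in microglia (with Igf1 and with Hif1a, below), and Trem2 as the receptor of the pathway. Each run is the 250 bases before a RefSeq start site on GRCm38.p6, 5′ to 3′ on the gene's strand, with CACGTG in capitals. Hif1a lies at chr12:73907617-73907866, Dkk2 at chr3:132085042-132085291 and Trem2 at chr17:48346151-48346400, all on the plus strand. The runs of Dkk2 and Trem2 end where the genes start in GENCODE M21, the other annotation used here. The Hif1a run lies within the GENCODE span of its gene and holds none of its exons, so it precedes 1 of several annotated starts.
Hif1a: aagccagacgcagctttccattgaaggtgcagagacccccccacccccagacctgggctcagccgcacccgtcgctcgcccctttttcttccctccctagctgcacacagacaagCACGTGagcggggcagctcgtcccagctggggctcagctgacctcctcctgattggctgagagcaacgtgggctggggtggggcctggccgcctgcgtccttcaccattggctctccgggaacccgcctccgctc
Dkk2: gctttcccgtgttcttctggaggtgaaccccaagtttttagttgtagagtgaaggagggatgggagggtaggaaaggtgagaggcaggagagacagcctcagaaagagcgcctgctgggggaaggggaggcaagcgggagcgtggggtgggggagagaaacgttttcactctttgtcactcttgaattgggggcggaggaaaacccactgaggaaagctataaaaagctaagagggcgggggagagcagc
Trem2: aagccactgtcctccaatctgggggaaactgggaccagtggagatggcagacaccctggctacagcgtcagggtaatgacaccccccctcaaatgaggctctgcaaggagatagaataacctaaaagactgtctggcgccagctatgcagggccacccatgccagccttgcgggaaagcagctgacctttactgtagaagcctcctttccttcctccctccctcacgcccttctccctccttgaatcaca
Windows of 250 bases before to 50 after a start site were found for 26 of the 32 genes. No window was matched for Tyrobp, Lpl, Ctsb, Cd52, Arhgap24 and Atp6v0d2. Both strands were searched for 3 motifs. CACGTG was in the windows of Ctsd, Ctsl and Hif1a, and in 7.15% of all 32851 windows. CATGTG, another E-box, was in those of Cd9 and Fth1, and in 14.15% of all windows. GAGGAAGT, a PU.1 motif, was in that of Spp1, and in 3.2% of all windows. Igf1, Dkk2 and Trem2 held none of the 3 in these windows. The motifs do not overlap one another in the runs shown, and a match is a description of letters only.

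Most of the genes had their highest level in microglia, but few were confined to them. Over the summed counts of 13 nucleus classes, 23 of the 32 members had their highest CPM in microglia, and 14 did so in all 7 libraries. The clusters were made from expression in the same nuclei, so these levels are a description without a test. Nuclei of unnamed clusters are in none of the 13 classes. They made up 13.3%, 30.5%, 23.6% and 7.26% of kept nuclei in ANGPT2 libraries and 22.8%, 14.7% and 12.6% in control libraries. A cluster of 524 nuclei that scored best for microglia was left unnamed as mostly doublets. The members together took 0.554% to 0.752% of the UMIs of microglia in a library. In the other classes this share ran from 0.0646% in striatal neurons to 0.486% in committed oligodendrocyte precursors, which had the highest single value outside microglia. A member was called specific where microglia were highest in all 7 libraries and stood at least 5-fold over the next class. This held for 7 members, namely Trem2, Itgax, Cybb, Ctsd, Ctsz, Lyz2 and Atp6v0d2. Just inside the ratio stood Lyz2 (5.18-fold, on only 5 UMIs in ependymal nuclei, its next class) and Ctsd (5.31-fold), and just outside stood Cst7 (4.85-fold). Cd68 (5.92-fold) and Ccl6 (5.35-fold) passed the ratio but were highest in microglia in 6 of 7 libraries.

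**Figure D1:**
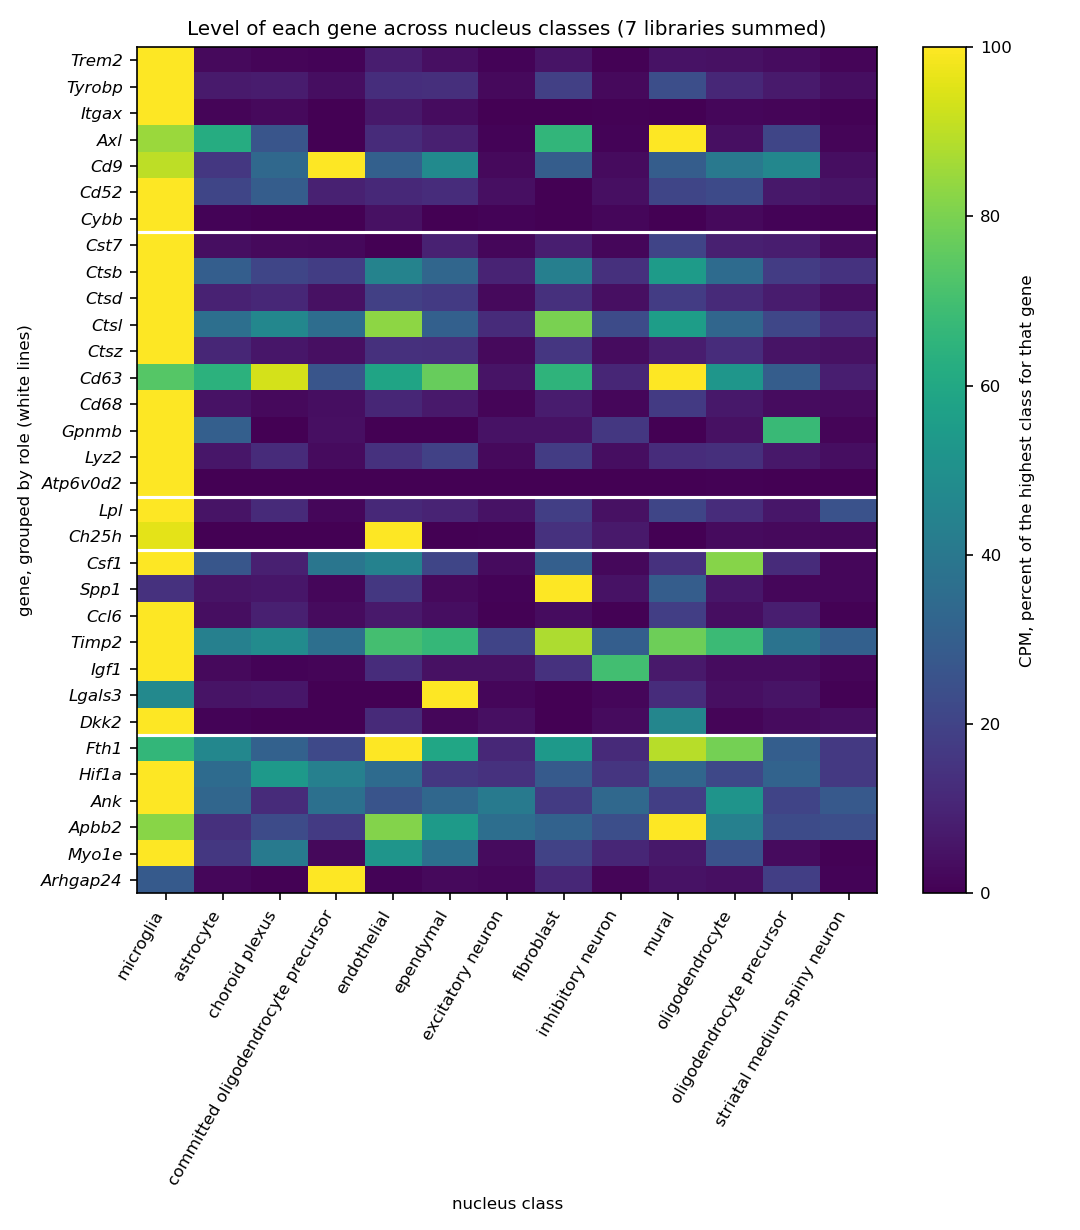
Level of each of the 32 genes (rows, grouped by role) across 13 nucleus classes (columns), as CPM of the 7 summed libraries in percent of the gene's highest class. The microglia column is the highest for 23 genes, while Spp1 peaks in fibroblasts, Arhgap24 and Cd9 in committed oligodendrocyte precursors and Fth1 in endothelial nuclei.

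Among receptors and signalling genes, 5 of 7 were highest in microglia. Trem2 (chromosome 17, 48346401 to 48354147) had 214 to 263 CPM in microglia over the 7 libraries. Its next class, endothelial nuclei, had 0 to 44.2 CPM on 15 UMIs in all, a 12.6-fold ratio over the sums, and 45.9% of all Trem2 UMIs were in microglia. Another 16.2% of Trem2 UMIs were in unnamed nuclei. Tyrobp (chromosome 7, 30413760 to 30417585) had 87.0 to 153 CPM in microglia and a ratio of 4.14 over mural nuclei. Itgax, the integrin subunit CD11c, was 15.9-fold higher in microglia than in endothelial nuclei, which held 2 UMIs (95% exact interval of the ratio 4.3 to 132.1). Cybb, the catalytic subunit of the phagocyte NADPH oxidase, was 22.9-fold higher than in endothelial nuclei, which held 1 UMI (4.0 to 909.4). Both intervals reach below the 5-fold limit. Cd52, a small surface glycoprotein of leukocytes, was highest in microglia at 11.01 CPM over the sums. Axl, a receptor tyrosine kinase that recognises phosphatidylserine through its ligand GAS6, was higher in mural nuclei (62.0 CPM) than in microglia (52.7 CPM). Cd9, a tetraspanin, was higher in committed oligodendrocyte precursors (250.2 CPM) than in microglia (225 CPM).

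Of the lysosome and proteolysis genes, 9 of 10 were highest in microglia. The protease cathepsin D (Ctsd) had 497 to 669 CPM in microglia and 20.3 to 230.0 CPM in endothelial nuclei, and the groups did not overlap. Cathepsin Z (Ctsz) was 6.35-fold over fibroblasts. Cathepsins B (Ctsb, 1.82-fold over mural nuclei) and L (Ctsl, 1.21-fold over endothelial nuclei) were shared with vascular classes. Cst7 codes for cystatin F, an inhibitor of lysosomal cysteine proteases, and Cd68 for a lysosomal membrane glycoprotein of macrophages. Lyz2, a lysozyme with the close copy Lyz1 in mouse, had 27.1 to 46.6 CPM in microglia, and reads shared with its copy make this level uncertain. Atp6v0d2, a subunit of the proton pump that acidifies vesicles, was rare and the most confined. It had 55 UMIs in microglia, 77.5% of all its UMIs, against 1 UMI in the oligodendrocytes, the next class (ratio 239, interval 40.1 to 9368). A further 14.1% of its UMIs were in unnamed nuclei. Gpnmb, a transmembrane glycoprotein of phagocytes, was highest in microglia (26.0 CPM) with oligodendrocyte precursors next (17.6 CPM). Cd63, a tetraspanin of late endosomes, was highest in mural nuclei (108 CPM, against 79.6 CPM in microglia).

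The lipid, secreted and mixed groups were more widely spread. Lpl, lipoprotein lipase, was 3.99-fold over striatal neurons. Ch25h, which makes 25-hydroxycholesterol, was near equal in microglia (8.47 CPM) and endothelial nuclei (8.82 CPM, 7 UMIs). Among secreted factors, Spp1 (osteopontin) was highest in fibroblasts at 54.7 CPM, against 7.83 CPM in microglia. Lgals3 (galectin-3) was highest in ependymal nuclei at 17.96 CPM on 13 UMIs, against 8.47 CPM in microglia. Igf1, insulin-like growth factor 1, had 207 CPM in microglia and 144 CPM in inhibitory neurons. Csf1, a ligand of the CSF1 receptor that microglia need to survive, had 159 CPM in microglia and 130.4 CPM in oligodendrocytes. The chemokine Ccl6 was 5.35-fold over mural nuclei (3 UMIs, interval 1.8 to 26.2). Dkk2, a secreted Wnt antagonist, was 2.18-fold over mural nuclei, and Timp2, a metalloproteinase inhibitor, was 1.14-fold over fibroblasts. In the mixed group, Hif1a (the hypoxia-regulated transcription factor subunit), Ank (a membrane protein that exports pyrophosphate) and Myo1e (an unconventional myosin) were highest in microglia, by 1.86-, 1.93- and 1.92-fold. Apbb2, which binds the APP tail, peaked in mural nuclei. Arhgap24, a Rac GTPase-activating protein, had 1895 CPM in committed oligodendrocyte precursors, against 536 CPM in microglia. Fth1, the ferritin heavy chain, had 1072 CPM in endothelial nuclei and 708 CPM in microglia, and reads shared with its pseudogenes make it uncertain.

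Levels were compared between genes per kilobase of gene span on GRCm38 (GENCODE M21), since nuclear RNA includes introns. On that scale Fth1 was highest in microglia (157 CPM per kb), ahead of Ctsd (48.0), Cd68 (42.0), Trem2 (30.7) and Tyrobp (29.7 CPM per kb), and Atp6v0d2 was lowest (0.255 CPM per kb). This order rests in part on short spans. Log10 CPM and log10 span had a Pearson r of only 0.435, and before division by span Apbb2 (811 CPM) stood above Fth1 (708 CPM). The spans ran from 1.39 kb (Ch25h) to 416.55 kb (Arhgap24). Another gene overlaps the span of 12 members, and for 1 of them, Timp2, on the same strand.

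Detection per nucleus was low, and for Fth1 it did not exceed that of oligodendrocytes. Each nucleus was thinned to 500 UMIs so that depths were equal, and all 2711 microglia reached this. Trem2 was then seen in 10.2% of microglia, against 0.539% of oligodendrocytes, 0.301% of astrocytes and 0.120% of excitatory neurons, which serve here as classes that should lack it. Without thinning the share in microglia was 29.6%. Tyrobp was seen in 5.53% of microglia and in 0.530% of oligodendrocytes, Igf1 in 8.08% and 0.202%, and Itgax in 1.96% and 0.019%. Fth1 was seen in 28.1% of microglia and 33.5% of oligodendrocytes, and Csf1, by a narrow margin higher in microglia, in 6.68% and 5.81%.

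Within microglia the members were seen together more often than their separate frequencies gave. In the thinned nuclei, 238 pairs from 27 members had at least 5 expected nuclei with both genes, counting the expectation within each library. Of these, 204 pairs (85.7%) were above it, with a median ratio of seen to expected of 1.32, and 19 reached 2 or more. No such share was counted for pairs of genes outside the list, so whether it is particular to the members was not tested. At least 7 members were seen in 140 nuclei, against 24.6 expected, and none was seen in 369, against 167 expected. Nuclei of 1 library share their source, so these are descriptions without a test. With the expectation set within 3 equal classes of original depth, the median ratio was 1.29.

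**Figure D2:**
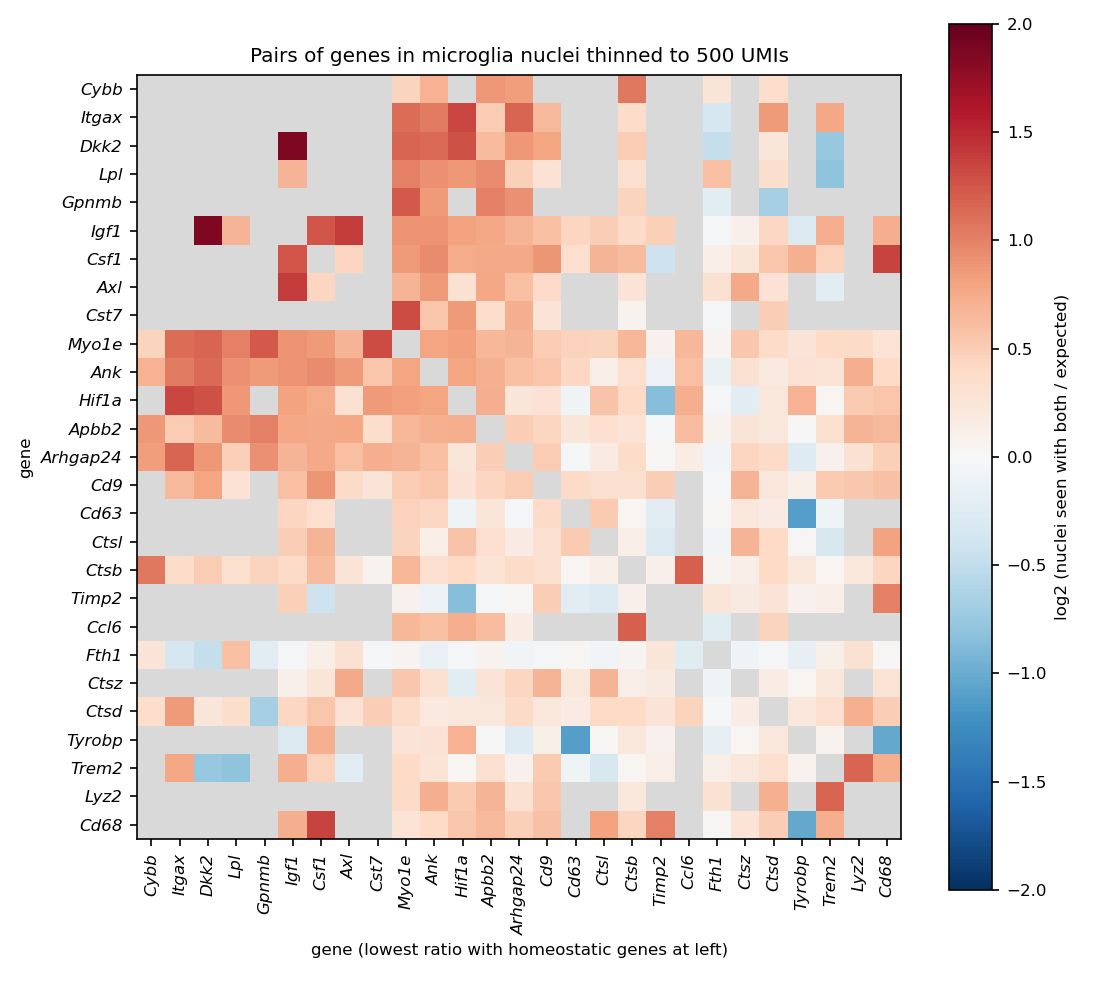
Co-detection of pairs of members in 2711 microglia nuclei thinned to 500 UMIs, as log2 of nuclei seen with both over nuclei expected, for pairs with at least 5 expected (grey: fewer). Genes run from the lowest to the highest co-detection with homeostatic genes, and the highest ratio, 3.63, is that of Igf1 with Dkk2.

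The 6 highest pairs drew on 9 members of different roles. Igf1 and Dkk2 were seen together in 23 nuclei, against 6.33 expected (3.63-fold, above expectation in all 7 libraries). Axl with Igf1 had 20 nuclei against 7.59 (2.64-fold), and Cd68 with Csf1 had 19 against 7.41 (2.56-fold). Itgax with Hif1a had 17 against 6.70 (2.54-fold), Cst7 with Myo1e 23 against 9.34 (2.46-fold), and Hif1a with Dkk2 20 against 8.31 (2.41-fold). The 3 lowest were Tyrobp with Cd63 (3 against 6.45, 0.465-fold), Tyrobp with Cd68 (3 against 6.07, 0.494-fold) and Timp2 with Hif1a (9 against 16.3, 0.552-fold). These counts are small. Thinning to 1000 UMIs instead leaves out nuclei with fewer. Median UMIs per microglia nucleus were 811 in control replicate 3 and 889 in ANGPT2 replicate 4, so most nuclei of these libraries dropped out. In the nuclei that remained, the ratio was 3.13 for Igf1 with Dkk2, 2.01 for Axl with Igf1, 2.09 for Cst7 with Myo1e and 1.74 for Hif1a with Dkk2. It was lower by more than 1.5 times for Cd68 with Csf1 (1.38) and Itgax with Hif1a (1.42). Of the lowest pairs, Tyrobp with Cd68 stayed at 0.514, while Tyrobp with Cd63 was at 1.02 and Timp2 with Hif1a at 0.949.

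The members differed in how often they were seen with the rest of the list. Summed over all other members, the ratio of seen to expected was 1.67 for Csf1, 1.62 for Igf1, 1.50 for Myo1e and 1.42 for Ank. It was 1.20 for Trem2, 1.06 for Tyrobp and 1.01 for Fth1. Against 24 homeostatic genes (P2ry12, Cx3cr1, Tmem119 and others) the order turned. Igf1 was seen with them at 0.838 of expectation, Csf1 at 0.855 and Myo1e at 0.877, while Trem2 stood at 1.04. Cd68 went against this order, with 1.07 for homeostatic genes and 1.36 for the other members. Among members seen in fewer nuclei, Itgax (0.783), Dkk2 (0.792), Lpl (0.799) and Gpnmb (0.815) were also low with homeostatic genes. Lyz2 (1.05) and Cd52 (1.03) were above 1 with them. Over the 18 members seen in at least 100 nuclei, a limit set after the data were seen, both ratios ran opposite to each other (Pearson r = -0.707, Spearman rho = -0.757). This is across genes of the same nuclei, which are not independent. Members with long spans had higher ratios with the other members (Spearman rho 0.555), and the part of span or of free RNA was not tested. With 18 other genes known in plaque-associated microglia (Apoe, Lilrb4a, Mamdc2 and others), Gpnmb had a ratio of 1.96, Igf1 1.54 and Trem2 1.20. With 20 TREM2 signalling genes Trem2 had 0.975 and Tyrobp 1.02.

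**Figure D3:**
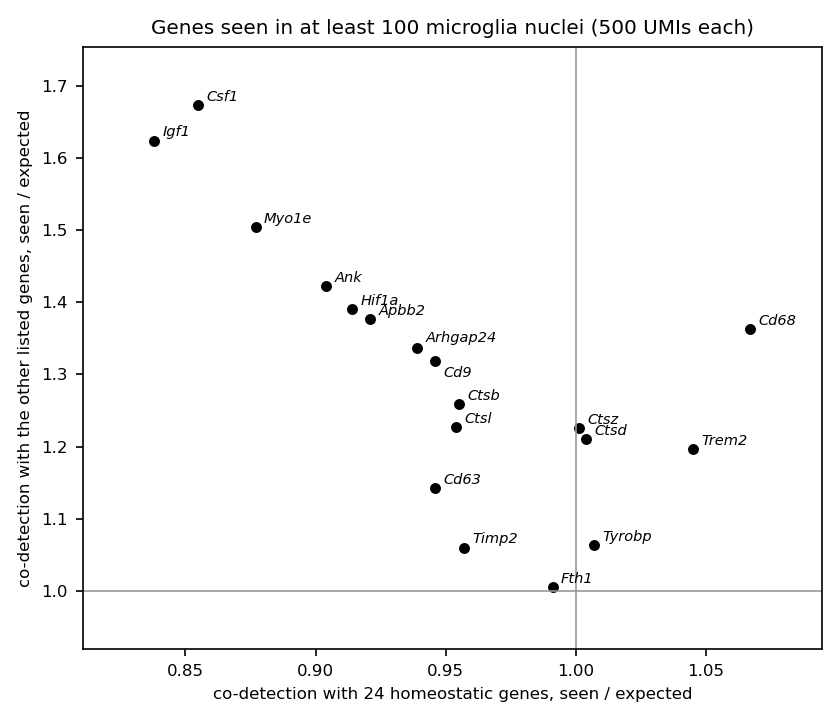
Ratio of nuclei seen to expected for each of 18 members with the 24 homeostatic genes (horizontal) and with the other members (vertical), in microglia nuclei thinned to 500 UMIs; 1 is the expectation. Igf1 and Csf1 lie at the upper left and Trem2, Tyrobp and Fth1 near or right of 1 with lower values.

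The groups could then be compared with the mouse as the replicate. ANGPT2 AAV against control AAV gave no member past the threshold in microglia. UMIs were summed per library and tested with edgeR on 9042 genes, and a gene was called at an adjusted p under 0.05. Of the 32 members, 27 passed the filter on low counts and 0 were called, against a background of 0.0% of all genes called. DESeq2 also called 0 members. At an unadjusted p under 0.05 there were 2 members, both lower (2 in DESeq2 as well), where 2.3% of all genes were lower and 1.54% higher at that level. Their median log2 change was -0.04, with 9 higher and 18 lower, beside a median of 0.00 over all genes. The members took 0.585%, 0.591%, 0.554% and 0.726% of microglia UMIs in ANGPT2 libraries, against 0.583%, 0.677% and 0.752% in control libraries. The means were 0.614% ± 0.0765 in ANGPT2 libraries (SD, n = 4) and 0.671% ± 0.0848 in control libraries (SD, n = 3), and the groups overlapped.

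**Figure D4:**
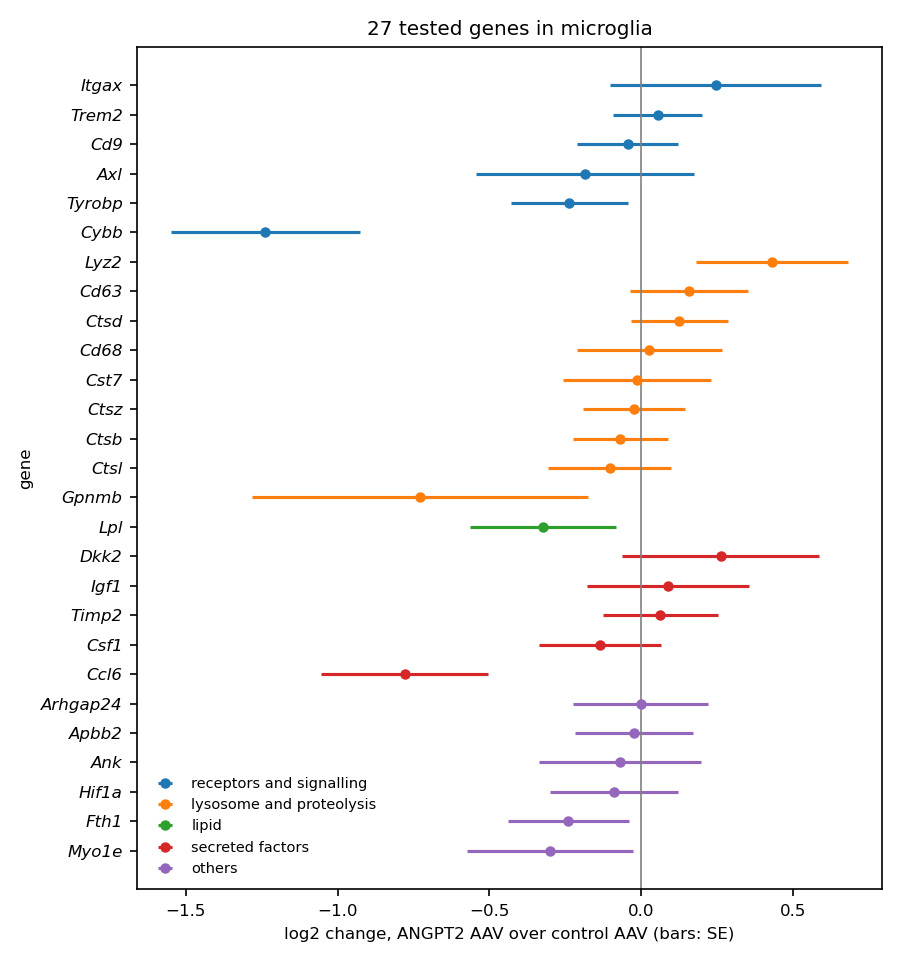
Log2 change of the 27 tested members in microglia, ANGPT2 AAV over control AAV, from edgeR (horizontal; bars are the standard error), grouped by role and ordered within it. Cybb at -1.24 and Ccl6 at -0.78 lie farthest from 0 in units of their standard error, and most other bars cross 0.

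Of the receptors, 2 of 6 tested were higher and 4 lower. CPM of single genes are scaled by TMM factors here and below, except for Ch25h, and floors and summed markers are unscaled. Trem2 had 239, 247, 245 and 227 CPM in ANGPT2 replicates 1 to 4, against 253, 221 and 211 CPM in control replicates 1 to 3. The groups overlapped and spanned a narrow range (log2 change 0.05, SE 0.15, unadjusted p = 0.715, adjusted p = 1). Tyrobp had 94.4, 113, 105 and 91.7 CPM in ANGPT2 libraries, against 147, 109 and 92.9 CPM in control libraries. Control replicate 1 was high and the groups overlapped (log2 change -0.24, SE 0.19). Cybb (X chromosome, 9435252 to 9487771) had 16.0, 16.5, 19.4 and 13.4 CPM in ANGPT2 libraries, against 34.2, 49.3 and 24.9 CPM in control libraries. All 4 ANGPT2 libraries lay below every control, as they did for 2.48% of all tested genes, and the reverse held for 2.17% of genes and 0 members. Its log2 change of -1.24 (SE 0.31, unadjusted p = 0.000968, adjusted p = 0.837) was not past the threshold, and it was -1.29 in batch 1 and -0.60 in batch 2 as a difference of mean log2 CPM. Itgax (0.25, SE 0.35) had the highest change of the group.

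Cybb is also a gene of other phagocytes and of B cells, so markers of such cells in the microglia class were set beside it. Summed lymphocyte markers were at 60.6, 122, 94.7 and 54.4 CPM in ANGPT2 libraries, against 276, 240.2 and 69.1 CPM in control libraries. Of these 12 markers, 8, 9, 6 and 6 had UMIs in ANGPT2 libraries and 12, 10 and 4 in control libraries. Border macrophage markers were at 563, 199, 466 and 232 CPM in ANGPT2 libraries, against 383, 203 and 177 CPM in control libraries. Of these 9 markers, 9, 7, 7 and 8 had UMIs in ANGPT2 libraries and 9, 8 and 6 in control libraries. Without the 28, 28, 17 and 15 nuclei of ANGPT2 libraries and the 67, 55 and 11 of control libraries that held at least 2 UMIs of these markers, Cybb had a log2 change of -1.12. The lymphocyte sum is not particular to lymphocytes. In oligodendrocytes it was 188 to 252 CPM in ANGPT2 libraries and 161 to 252 CPM in control libraries. Median UMIs per microglia nucleus were 2187, 2425, 1154 and 889 in ANGPT2 libraries and 2747.5, 2291.5 and 811 in control libraries. A limit of 2 UMIs thus falls unevenly on the libraries, and the part of other cells in the Cybb values was not tested.

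**Figure D5:**
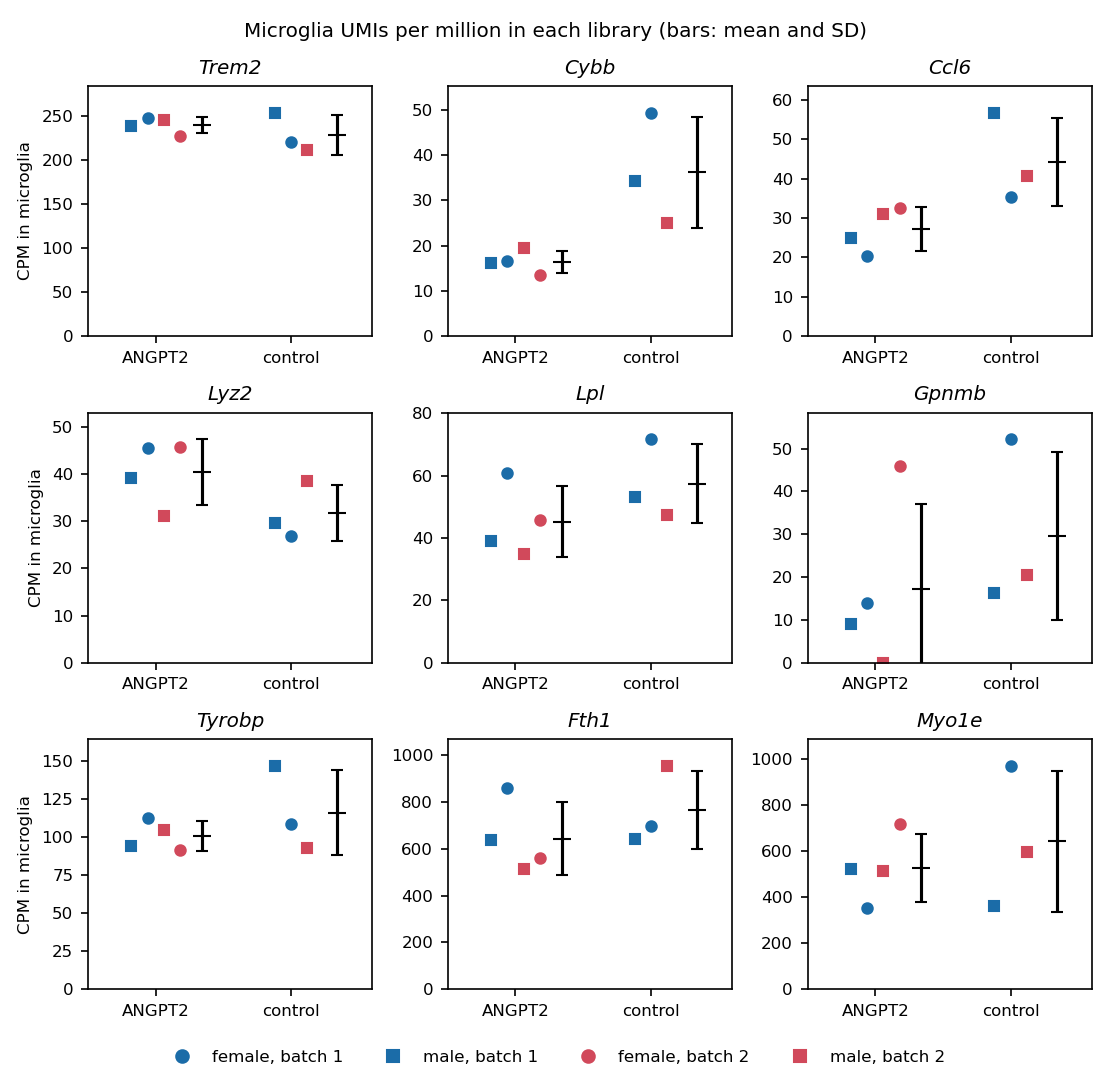
TMM-scaled CPM in microglia for the 9 members given in full, 1 point per library, with ANGPT2 AAV (n = 4) at left and control AAV (n = 3) at right in each panel; bars at the side are mean and SD, cut at 0. For Cybb and Ccl6 every ANGPT2 library lies below every control library, and for the other 7 members the groups overlap.

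Of 9 tested lysosome and proteolysis genes, 4 were higher and 5 lower, and none was at an unadjusted p under 0.05. Lyz2 had 39.2, 45.7, 31.1 and 45.9 CPM in ANGPT2 libraries, against 29.7, 27 and 38.5 CPM in control libraries. The groups overlapped (log2 change 0.43, SE 0.25), and this was the highest change of all members. Gpnmb had 8.91, 13.9, 0 and 45.9 CPM in ANGPT2 libraries, against 16.2, 52.1 and 20.4 CPM in control libraries. Its high libraries were 1 female in each group, and a count of 0 in ANGPT2 replicate 3 allows up to 11.4 CPM (3 counts). The change was -0.73 (SE 0.55), and without control replicate 2 it was 0.07. The remaining 7 ran between these values.

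Lpl had 39.2, 60.9, 35.0 and 45.9 CPM in ANGPT2 libraries, against 53.2, 71.7 and 47.6 CPM in control libraries, and the groups overlapped (log2 change -0.32, SE 0.24). Ch25h was too low to test. It had 3, 5, 0 and 0 UMIs in ANGPT2 libraries, against 11, 14 and 7 UMIs in control libraries. In CPM this was 5.34 and 6.47 in ANGPT2 replicates 1 and 2, against 10.3, 13.1 and 16.1 in control libraries. The zeros allow up to 5.44 CPM in ANGPT2 replicate 4 and 11.4 CPM in replicate 3, which is above control replicate 1, so replicate 3 is not shown to be below every control. The other untested members had 18 and 19 UMIs in ANGPT2 and control libraries (Spp1), 23 and 29 (Cd52), 12 and 28 (Lgals3) and 29 and 26 (Atp6v0d2).

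Among secreted factors, 3 of 5 tested were higher and 2 lower. Ccl6 (chromosome 11, 83587882 to 83593087) had 24.9, 20.3, 31.1 and 32.5 CPM in ANGPT2 libraries, against 56.8, 35.4 and 40.8 CPM in control libraries. The groups did not overlap (log2 change -0.78, SE 0.28, unadjusted p = 0.0117, adjusted p = 1). The difference was -0.96 in batch 1 and -0.35 in batch 2, and without control replicate 1 the change was -0.51. Dkk2 had the highest change of this group (0.26, SE 0.32). All 6 mixed-group members were lower, from -0.30 to -0.00. Fth1 had 639, 861, 513 and 560 CPM in ANGPT2 libraries, against 642, 697 and 954 CPM in control libraries, with overlap (log2 change -0.24, SE 0.20). Myo1e had 522, 354, 513 and 717 CPM in ANGPT2 libraries, against 361, 969 and 596 CPM in control libraries. Control replicate 2 was far above the others, and without it the change of -0.30 (SE 0.27) became 0.15. Within batches 1 and 2 the differences of opposite sign were -0.29 and 0.08 for Tyrobp, 0.70 and -0.66 for Itgax, 0.56 and -0.03 for Lyz2, 0.15 and -0.83 for Fth1, and -0.46 and 0.03 for Myo1e.

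No gene of the 3 other lists was called in microglia either. Of 24 homeostatic genes, all were tested, 0 were called in edgeR and 0 were at an unadjusted p under 0.05. Their median log2 change was 0.20, with 22 higher and 2 lower, beside 50.0% of all genes higher and a median of 0.00. Fcrls (0.35, SE 0.17) and Siglech (0.37, SE 0.19) had the smallest p. In 1 of the 24 genes every ANGPT2 library lay above every control, as in 2.17% of all tested genes. Of 20 TREM2 signalling genes, 19 were tested, 0 were called, and 8 were higher and 11 lower (median -0.05). The adaptor Lat2 had 32.1, 39.3, 27.2 and 44.0 CPM in ANGPT2 libraries, against 52.3, 66.1 and 49.8 CPM in control libraries, and the phosphatase gene Ptpn6 had 62.3, 58.3, 35.0 and 65.0 CPM, against 83.8, 68.0 and 104 CPM in control libraries. Neither gene's groups overlapped (log2 changes -0.64, SE 0.23, and -0.55, SE 0.22, adjusted p = 1 for both). Every ANGPT2 library was below every control for 2.48% of all tested genes. These 2 genes of the list were lower at an unadjusted p under 0.05 in edgeR, where 2.3% of all genes were. Of 18 other genes known in plaque-associated microglia, 16 were tested, 0 were called, and 3 were higher and 13 lower (median -0.14). In 1 of the 16 every ANGPT2 library lay below every control, and 1 was lower at an unadjusted p under 0.05. The receptor gene Lilrb4a had 102, 126, 132 and 241 CPM in ANGPT2 libraries, against 235, 256 and 272 CPM in control libraries. ANGPT2 replicate 4 lay among the controls (-0.76, SE 0.22, unadjusted p = 0.00316), and Gpr65 had a change of -0.79 (SE 0.45).

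Outside microglia, 0 members were called by edgeR or DESeq2 in any of 12 classes, in 163 tests of a member in a class. At an unadjusted p under 0.05 there were 8 lower and 0 higher in edgeR (6 lower in DESeq2). These counts rest in part on single libraries. Without control replicate 2 there was 1 in oligodendrocytes and 0 in excitatory neurons, and without ANGPT2 replicate 1 there were 2 and 0. With finer clusters (resolution 2) oligodendrocytes had 0 lower and 1 higher. That class held only 147 nuclei of control replicate 2, against 1241 in the main clustering, so this alternative largely leaves out that library's oligodendrocytes. Oligodendrocytes held 4 of these among 22 tested members, where 1.6% of all genes were lower and 0.951% higher at that level. They were Cd68, Tyrobp, Ctsd and Trem2, the last named after its value was seen. Cd68 had 2.4, 3.3, 5.1 and 0.8 CPM in ANGPT2 libraries, against 7.2, 8.3 and 9.2 CPM in control libraries (log2 change -1.49, SE 0.38, adjusted p = 1). Tyrobp had 6.5, 12.9, 7.1 and 9.7 CPM in ANGPT2 libraries, against 13.6, 19.8 and 13.8 CPM in control libraries (-0.75, SE 0.28). Neither gene's groups overlapped in oligodendrocytes, where every ANGPT2 library was below every control for 2.55% of all genes. Ctsd averaged 54.5 ± 9.94 CPM in ANGPT2 libraries and 78.5 ± 19.9 CPM in control libraries (SD, n = 4 and 3), with overlap (-0.50, SE 0.19). Beside them, the 14 microglia markers summed to 187 to 222 CPM in oligodendrocytes of ANGPT2 libraries and 231 to 329 CPM in those of control libraries, and these ranges did not overlap either. In the thinned nuclei Cd68 was seen in 0.202% of oligodendrocytes and 4.13% of microglia, and the part of free microglial RNA was not tested.

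Excitatory neurons held the other 4. Of 28 tested members 22 were lower, and 4 were lower at an unadjusted p under 0.05, where 2.38% of all genes were lower and 2.29% higher. Cd68 had 0.6, 0.6, 1.3 and 0.9 CPM in ANGPT2 libraries, against 1.2, 2.4 and 1.3 CPM in control libraries, with overlap. Its change was -1.07 (SE 0.37), that of Trem2 -0.80 (SE 0.33) and that of Cd52 -1.06 (SE 0.44), and Ctsd, named after its value was seen, was the fourth. For Cd52 every ANGPT2 library was below every control, as for 446 of the 17871 genes tested in excitatory neurons. The microglia markers summed to 43.3 to 56.5 CPM in excitatory neurons of ANGPT2 libraries, against 52.5 to 76.3 CPM in those of control libraries. In astrocytes 12 of 15 tested members were lower and none was at an unadjusted p under 0.05, beside 3.42% of all genes in either direction. The cathepsins led there, with Ctsb at -0.34 (SE 0.16), Ctsl at -0.41 (SE 0.21) and Ctsz at -0.72 (SE 0.38). For Ctsl and Ctsz every ANGPT2 library was below every control, as for 239 of the 9653 genes tested in astrocytes. The microglia markers summed to 149 to 185 CPM in astrocytes of ANGPT2 libraries, against 184 to 256 CPM in those of control libraries. In endothelial nuclei, where 6 of 7 tested were lower and none at an unadjusted p under 0.05 (2.87% of all genes), they led too, with Ctsd at -0.82 (SE 0.47), Ctsl at -0.41 (SE 0.46) and Ctsb at -0.32 (SE 0.40). These are not stable: Ctsd differed by -1.01 in batch 1 and 1.56 in batch 2, and Ctsl by -0.44 and 0.12. Without control replicate 2 the change was -0.27 for Ctsd and -0.01 for Ctsb, and without control replicate 1 it was 0.07 for Ctsl. The microglia markers summed to 218 to 384 CPM in endothelial nuclei of ANGPT2 libraries, against 315 to 849 CPM in those of control libraries, and their part in these values was not tested.

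In whole libraries, all 32 members were tested, 0 were called in edgeR and 0 in DESeq2, and 25 were lower (median log2 change -0.14, beside -0.02 over all genes). Ch25h, Cybb and Cd52, named after their values were seen, were lower at an unadjusted p under 0.05, where 1.65% of all genes were (1 member in DESeq2). Without control replicate 2, and also without ANGPT2 replicate 4, there were 0 of these. In such sums fewer microglia and less RNA per microglia cannot be told apart. Microglia made up 3.48%, 3.56%, 3.7% and 7.69% of kept nuclei in ANGPT2 libraries, against 4.45%, 6.09% and 5.8% in control libraries. Their markers summed to 164 to 235 CPM of whole ANGPT2 libraries and 224 to 277 CPM of whole control libraries.

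Females and males were compared with the vector accounted for, and again no member passed the threshold. With treatment as a term, 9 genes were called between females and males in microglia (0.0995% of those tested) and 0 were members, in edgeR and in DESeq2. At an unadjusted p under 0.05, 3 members were higher in females (2.74% of all genes were) and 1 was lower (1.5%). Gpnmb had 13.9 and 45.9 CPM in ANGPT2 females and 52.1 CPM in the control female, against 8.91 and 0 CPM in ANGPT2 males and 16.2 and 20.4 CPM in control males. One female lay among the males (log2 change 1.75, SE 0.44, unadjusted p = 0.000834, adjusted p = 0.29). Igf1 had 167 and 357 CPM in ANGPT2 females and 264 CPM in the control female, against 171 and 144 CPM in ANGPT2 males and 143 and 186 CPM in control males (0.70, SE 0.22, adjusted p = 0.663). Cd68 averaged 67.2 ± 15.4 CPM in females (SD, n = 3) and 97.7 ± 6.05 CPM in males (SD, n = 4), a log2 change of -0.58 (SE 0.21, adjusted p = 0.945). Lpl, named after its value was seen, was the other member higher in females (0.51, SE 0.23). Whether the vector's effect differs between the sexes was not tested.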

How the data were processed

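Single-nucleus libraries of 7 mice were analysed from matrices of raw UMI counts, which the authors deposited without normalization. The authors used Cell Ranger 6.1.2 and mm10 (GRCm38), per the submitters' processing notes, and strand settings are not given in the sources used here. Barcodes with at least 300 genes and under 5% mitochondrial UMIs were kept (58169 of 58286), 3939 called doublets were removed after clustering, and total UMIs per library were 25466033 to 100529717. Nuclei were clustered with scanpy 1.11.5 (2500 variable genes, 19 of them members, 40 components, Leiden resolution 1) into 46 clusters, which were named from marker lists without members. For each class, the UMIs of a library were added up and tested with edgeR 4.0.16 (quasi-likelihood, TMM, filterByExpr, treatment only, Benjamini-Hochberg over all genes tested); a log2 change is ANGPT2 over control, and females over males with treatment as a term. The filter needs a count of about 10 in enough libraries and 15 in all. The scripts were tested on simulated data. DESeq2 1.42.0, other scalings, filters, clusterings and left-out libraries were tried as alternatives. The list of members, the gene lists and the roles were chosen with earlier results of these data known. Values in full were given for Trem2, Tyrobp and the 8 members with the smallest p in microglia (Tyrobp among them), and elsewhere for the 2 or 3 with the smallest p.

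The labels' own replicate number, 1 or 2, is also their batch label, so the replicate block was the batch. The numbers 1 to 4 used here only name libraries. Deviations from the group mean in microglia correlated by -0.038 to 0.175 between ANGPT2 and control libraries of the same batch (6 pairs) and by -0.16 to 0.146 between batches (6 pairs).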

Additional observations from a re-analysis of the deposited data

Results flagged for a closer look

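Of 48 groups of 4 libraries examined, 2 held a library far from the other 3 by Dixon's ratio, where chance flags about 1 in 20. Igf1 in microglia of ANGPT2 replicate 4, the female of batch 2, was at 357.33 CPM, above 144, 167 and 171 CPM in the other ANGPT2 libraries and above the 143, 264 and 186 CPM of control libraries. Cd9 in microglia of ANGPT2 replicate 3, the male of batch 2, was at 182.64 CPM, below 228, 237 and 235.0 CPM in the other ANGPT2 libraries, against 219, 195 and 283 CPM in control libraries.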

How the results depend on the processing

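Members called in microglia stayed at 0 in all 18 alternatives, at 0 in other classes in 16 and at 0 in whole libraries in 14, the replicate block among them: with it the count of called members was 0 and the members' median log2 change -0.095, and it changed no call. Over all genes in microglia, 0 were called in the report, against 68 with no filter on low counts, 12 without control replicate 3, 8 with block and sex, 1 with sex and 1 without control replicate 1, none of them members. Block and sex together gave a median of -0.165. Without each library in turn the median ran from -0.17 to 0.037, above 0 in 3 of 18 alternatives, so its sign is not stable. Females over males, 0 members were called except with no filter on low counts, where 2 were (Gpnmb and Igf1); leaving out a library gave 0 to 0. Members highest in microglia numbered 22 to 25. Pairs above expectation numbered 177 to 204, or 273 of 324 with 1000 UMIs, where nuclei with fewer were left out. The ANGPT2 minus control difference in the members' share ran from -0.1004 to -0.0158 points. Leaving out a library in turn gave log2 changes of -1.66 to 0.069 for Gpnmb and -0.583 to 0.145 for Myo1e. In microglia, log2 changes that changed sign among the 9 members given in full were Gpnmb (0.069) and Myo1e (0.145) without control replicate 2 and Tyrobp (0.072) with sums thinned to the smallest library; the cause was not tested. Cybb ran from -1.373 to -0.942 in 17 alternatives (adjusted p at least 0.0594). Depth limits the rare members: 5 of 32 were too low to test in microglia.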

Other observations

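Over the 32 members, log10 CPM in microglia and log10 gene span had a Pearson r of 0.435 and a Spearman rho of 0.349, across genes that share the same libraries. The share of thinned microglia with at least 5 members was 13.7%, 15.6%, 13.1% and 20.7% in ANGPT2 libraries, against 10.96%, 20.1% and 21.0% in control libraries. Independent detection would give 5.49%, 8.47%, 4.92% and 12.6% in ANGPT2 libraries, and 5.68%, 12.7% and 14.6% in control libraries. The observed share was above that in each of the 7 libraries, and no other set of genes was counted for comparison.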
